A study of Mus musculus with 13 samples.

Results

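Apoe and 6 genes of the liver X receptor (LXR) cholesterol efflux programme were followed in mouse alveolar macrophages, the phagocytes that live in the airspaces of the lung. The 7 genes were Apoe, the transporters Abca1 and Abcg1, the receptors Nr1h2 and Nr1h3, and the LXR-induced genes Mylip and Lpcat3, out of 43430 genes in the count table. Apoe was selected on its measured counts in these same libraries, because its response to particles differed between mice with and without metformin, so its values are given as a description, with no test. The other 6 genes were listed for what they are known to do, but with earlier results of these data known. Each was tested, and the count of called genes among the 6 is a description.

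The study crossed drinking water with an airway instillation in male wild-type C57Bl/6 mice aged 10 weeks. Metformin, a biguanide used against type 2 diabetes, was given at 100 mg/kg/day from 24 h before the instillation, and the remaining animals drank vehicle. Into the airway went either 10 µg of a reference particulate matter preparation (PM) or, in controls, phosphate-buffered saline alone (PBS), and alveolar macrophages were taken by flow cytometric sorting 24 h later. Of the 13 libraries, described as biological replicates, 4 came from vehicle PBS mice and 3 each from metformin PBS, vehicle PM and metformin PM mice.

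LXRs are nuclear receptors that sense oxidised cholesterol (oxysterols). As heterodimers with a retinoid X receptor they sit on a repeated DNA element, hold a co-repressor there when no ligand is bound, and exchange it for a co-activator when an oxysterol binds. In macrophages their known targets move cholesterol out of the cell: ABCA1 and ABCG1 export it, apolipoprotein E carries it away, MYLIP limits the uptake of lipoprotein cholesterol, and LPCAT3 puts polyunsaturated chains into membrane phospholipids. Alveolar macrophages take up lipid-rich surfactant, and sterol export by ABCG1 is among the functions they are known for.

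The bases just before the start sites are shown because the LXR element is the feature the programme is named for. RefSeq start sites on GRCm38.p6 (the same coordinates as mm10, the build of the counts) gave windows of 250 upstream bases for 6 of the 7 genes (Apoe, Abca1, Nr1h2, Nr1h3, Mylip and Lpcat3). The textbook element, the direct repeat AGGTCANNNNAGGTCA read on both strands with at most 2 mismatches over its 12 fixed letters, occurred in 843 of 32851 mouse windows (2.57%) and in none of those 6 genes. A narrower form, GGTTANNNNCGGTCA, was written down after the Abca1 and Srebf1 windows had been read, so its presence there is a description of those windows. It was searched on both strands without mismatches and lay in 4 of 32851 windows (0.0122%): those of Abca1, of Srebf1 (the sterol regulatory factor SREBP1, in 1 of its 3 windows), of Fasn (fatty acid synthase) and of Prrg4. Srebf1 and Fasn were on a list of 16 other LXR targets, of which 11 had windows, while Prrg4 had 0 counts in every library. Each sequence below runs 5′ to 3′ on the gene's own strand, which is the minus strand for all 4, and capitals mark the match, which reads as the reverse complement of the motif. The Apoe window is the outermost of its 3 and has no capitals because neither form was found in it.
Abca1, chr4:53159896-53160145: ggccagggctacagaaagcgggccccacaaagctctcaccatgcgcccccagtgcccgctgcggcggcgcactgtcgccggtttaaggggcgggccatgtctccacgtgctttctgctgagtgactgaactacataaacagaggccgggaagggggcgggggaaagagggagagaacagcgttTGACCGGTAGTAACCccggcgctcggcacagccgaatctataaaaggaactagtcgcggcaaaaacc
Srebf1, chr11:60210472-60210721: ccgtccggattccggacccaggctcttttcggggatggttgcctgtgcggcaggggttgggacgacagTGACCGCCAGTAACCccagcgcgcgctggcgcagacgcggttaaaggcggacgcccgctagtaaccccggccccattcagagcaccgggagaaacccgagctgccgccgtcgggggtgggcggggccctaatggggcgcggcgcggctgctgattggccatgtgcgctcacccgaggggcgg
Fasn, chr11:120824548-120824797: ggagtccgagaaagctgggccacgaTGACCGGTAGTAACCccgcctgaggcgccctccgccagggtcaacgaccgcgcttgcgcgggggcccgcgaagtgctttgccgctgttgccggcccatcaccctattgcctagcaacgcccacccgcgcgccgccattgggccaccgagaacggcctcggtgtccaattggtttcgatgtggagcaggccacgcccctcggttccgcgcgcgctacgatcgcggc
Apoe, chr7:19699189-19699438: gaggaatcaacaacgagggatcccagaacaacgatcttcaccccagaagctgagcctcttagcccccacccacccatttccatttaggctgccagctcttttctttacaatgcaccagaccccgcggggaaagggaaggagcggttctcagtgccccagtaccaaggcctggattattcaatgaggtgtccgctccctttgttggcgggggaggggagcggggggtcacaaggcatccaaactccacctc

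In these windows the Abca1 match lay 67 to 53 bases before the start, the Srebf1 match 182 to 168 bases and the Fasn match 225 to 211 bases. The matched letters of Abca1 and Fasn were identical over the whole 15-base stretch as printed, spacer included. A window without a match says only that these letters are not in those 250 bases.

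Total counts were 5567481 to 8100538 per library, with the metformin PM libraries at 6514625 to 8100538. All 15 alveolar macrophage markers were detected, and their summed level was 24340 to 30690 CPM in the 13 libraries, where CPM is a gene's count relative to the library total, scaled between libraries by the trimmed mean of M values (TMM). Chil3 alone was at 13340 to 19050 CPM of that sum. All 7 genes passed the filter on low counts that left 11906 genes, with 243 or more counts each in every library. The labels name no batch, so an unnamed batch and the groups cannot be told apart. Fold changes come from edgeR's quasi-likelihood fit on counts, are given as log2 fold change ± standard error (SE), and were called at an adjusted p under 0.05 after Benjamini-Hochberg adjustment over all 11906 genes. Metformin after PBS or after PM means metformin against vehicle mice given that instillate, although metformin itself began before the instillation. In bulk RNA of sorted cells, fewer cells of a type and less RNA per cell cannot be told apart.

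Per kilobase of exon, Abcg1 stood far above the rest of the programme. Its level was 345 to 442 CPM per kb over the 13 libraries, against 26.2 to 42.0 CPM per kb for Abca1. Within each library the ratio of the per-kilobase levels of Abcg1 and Abca1 was 8.87 to 14.3. Lpcat3 came next after Abcg1, at 49.2 to 61.6 CPM per kb. The other 4 genes overlapped in this order: Mylip at 16.9 to 36.02, Nr1h2 at 23.2 to 26.4, Apoe at 18.4 to 54.5 and Nr1h3 at 18.5 to 25.1 CPM per kb. Apoe was therefore a low member of the programme in 3 of the groups, near 23 to 24 CPM per kb on average, and reached 50.04 ± 7.71 CPM per kb (SD, n = 3) with metformin and PBS.

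**Figure D1:**
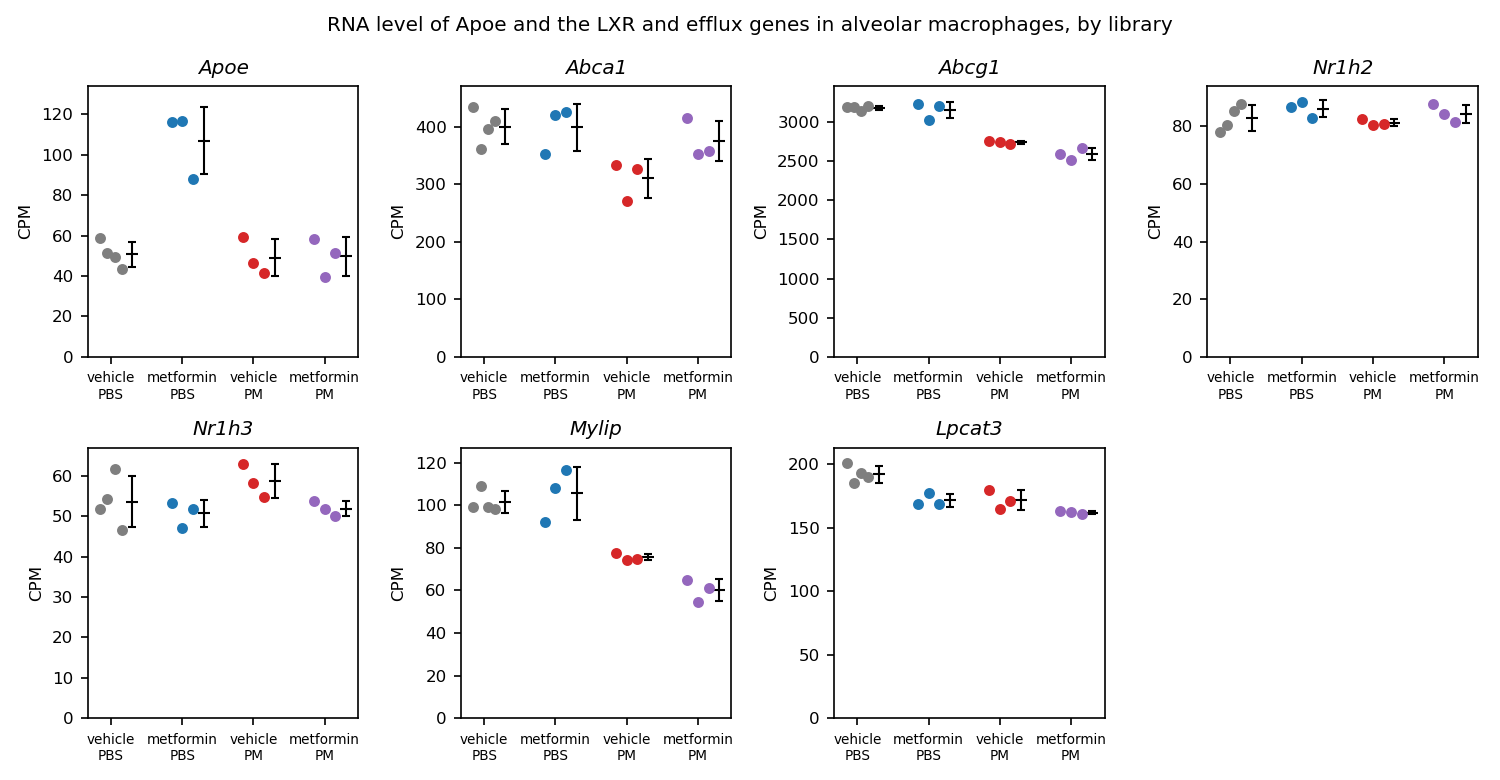
RNA level in CPM (vertical axis, from 0) of Apoe and the 6 LXR and efflux genes in each of the 13 libraries, by group; each point is a library and the bar is the group mean ± SD (n = 4, 3, 3 and 3). Apoe is highest in the 3 metformin PBS libraries (87.95 to 117 CPM), Abcg1 and Mylip step down in both PM groups, and Abca1 is lowest in vehicle PM.

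Apoe (ENSMUSG00000002985, chr7:19696109-19699166, minus strand) encodes the lipoprotein component that accepts exported cholesterol and is bound by receptors on the cell surface. In the 4 vehicle PBS libraries Apoe was at 58.9, 51.2, 49.3 and 43.4 CPM. In the metformin PBS libraries it was at 116, 117 and 87.95 CPM, the highest level of the study, with no overlap with any other group. Apoe was at 59.2, 46.6 and 41.6 CPM with vehicle and PM, and at 58.5, 39.4 and 51.5 CPM with metformin and PM. The 3 groups without this elevation overlapped fully, with means of 50.7, 49.1 and 49.8 CPM, so their order is not resolved beyond the spread between libraries.

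The fitted changes of Apoe put numbers on that picture, and no test is attached to them. Their SEs and intervals take no account of the choice of Apoe by these same counts, so an interval away from 0 is no test either. Metformin with PBS differed from vehicle with PBS by 1.07 ± 0.13 (2.10-fold; 95% interval 0.80 to 1.35), which ranked 31st from the top of 11906 genes. PM against PBS in metformin mice differed by −1.10 ± 0.14, the 28th lowest value of all genes. The same comparison in vehicle mice gave −0.04 ± 0.14 (interval −0.34 to 0.25), and metformin against vehicle after PM gave 0.01 ± 0.15 (−0.30 to 0.32). The difference of the 2 PM effects was −1.06 ± 0.20, the 56th lowest. These 5 numbers describe 4 group means and share libraries, since the metformin PBS group enters each value that is away from 0. Leaving out each library in turn moved the difference between −1.21 and −0.911, and the value for metformin after PBS between 1.01 and 1.20.

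Macrophages recruited from blood and those of the lung interstitium are known to carry much Apoe, so their markers were read beside it. Of 22 monocyte and interstitial macrophage markers, 12 passed the filter, and none was called for metformin after PBS, where 3.07% of all genes were called. The summed level of the list was 3255 to 3595 CPM with vehicle PBS, 3593 to 3977 with metformin PBS, 4237 to 5345 with vehicle PM and 4159 to 4724 with metformin PM. Fn1 was the largest term of that sum in every group, so the sum does not stand for the list as a whole. Of the 12, 4 had an unadjusted p under 0.05 for metformin after PBS with edgeR, and they are named here after their values were seen. Fn1, the fibronectin gene, was at 1503 ± 161 CPM with vehicle PBS (SD, n = 4) and 1991 ± 341 with metformin PBS (SD, n = 3), a log2 fold change of 0.41 ± 0.11 (adjusted p = 0.0562). Csf1r, the receptor for macrophage colony-stimulating factor, was at 276 to 338 CPM and 346 to 377 CPM, all metformin libraries above all vehicle libraries (0.21 ± 0.06, adjusted p = 0.0776). The other two had negative values, −0.36 ± 0.11 for Gpnmb, a lysosomal glycoprotein gene (adjusted p = 0.0784), and −0.26 ± 0.10 for Spp1, the osteopontin gene (adjusted p = 0.174). Fn1 shares 292 exon bases with Apol7d and Csf1r 873 with Hmgxb3. The complement genes C1qa, C1qb and C1qc, defining for interstitial macrophages, were at most at 1.59 CPM in any library, and Ly6c2, Cx3cr1, Folr2 and Cd163 were below 1 CPM throughout. Other members of the list were present. Lyve1 was at 0.357 to 1.12 CPM with vehicle PBS and 1.27 to 1.64 CPM with metformin PBS. In the same 2 groups Ccr2 was at 6.79 to 9.81 and 5.89 to 9.88 CPM, and Cd14 at 550 to 640 and 548 to 670 CPM. Of the 12 tested, 6 had a positive and 6 a negative value for metformin after PBS. Of the 15 alveolar macrophage markers only Marco, a scavenger receptor, was called for metformin after PBS (−1.11 ± 0.17, adjusted p = 0.00245), with 198, 135 and 183 CPM against 431, 401, 393 and 261 CPM. The part of either marker list in the Apoe values was not tested.

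The genes next to Apoe include other apolipoprotein genes of the same cluster. Apoc1, whose product is another exchangeable apolipoprotein, lies 3451 bases from Apoe and was at 8.70 ± 1.63 CPM with vehicle PBS (n = 4), 10.7 ± 1.42 with metformin PBS, 6.496 ± 0.787 with vehicle PM and 5.71 ± 1.81 with metformin PM (SD, n = 3 each). It fell with PM in metformin mice (−0.90 ± 0.21, adjusted p = 0.00631). With metformin after PBS Apoc1 differed by 0.31 ± 0.19 (adjusted p = 0.411), and its 2 PM effects differed by −0.49 ± 0.29 (adjusted p = 0.553), so neither passed the test. Tomm40, a mitochondrial import pore gene that lies 2147 bases on the other side of Apoe, differed by −0.09 ± 0.09 with metformin after PBS and by 0.01 ± 0.09 with PM in metformin mice. Clptm1, Gm20512 and Nectin2 were not called in any comparison either. Apoc4 had 0 counts in every library and Apoc2 at most 1.63 CPM, so neither could be tested.

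**Figure D2:**
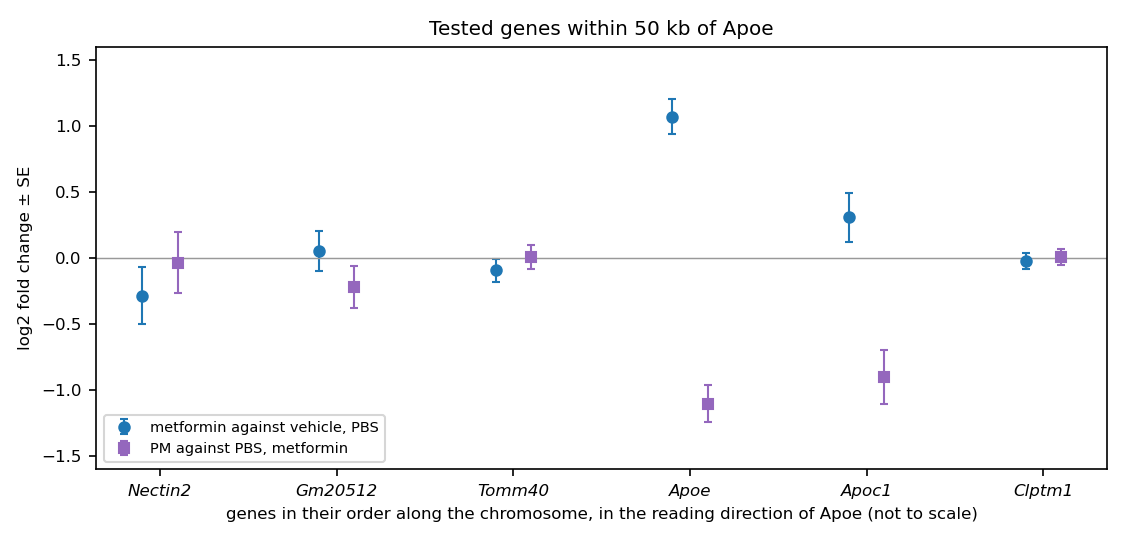
Log2 fold change ± SE (vertical axis) of the tested genes within 50 kb of Apoe, in chromosomal order, for metformin against vehicle after PBS (circles) and PM against PBS in metformin mice (squares). Apoe shows 1.07 and −1.10; Apoc1 shows 0.31 and −0.90, and the other 4 genes lie within 0.30 of 0.

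Both efflux transporters fell with PM in vehicle mice, and neither passed the test for metformin. Abca1 (ENSMUSG00000015243, chr4:53030787-53159895, minus strand) passes cholesterol and phospholipid to lipid-poor apolipoproteins. With vehicle PBS it was at 436, 361, 397 and 409.6 CPM, and with metformin PBS at 353, 421 and 426 CPM. With vehicle PM Abca1 was at 334, 272 and 327 CPM, below every library of the other 3 groups. With metformin PM it was at 415.2, 352.2 and 357.9 CPM, against 352.8 to 435.6 CPM over the PBS libraries.

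Abca1 fell with PM in vehicle mice (−0.37 ± 0.08, 1.29-fold lower, adjusted p = 0.0115), but not without the second vehicle PM library (−0.28, adjusted p = 0.0831). In metformin mice the PM effect was −0.09 ± 0.09 (adjusted p = 0.567). Metformin left Abca1 at −0.003 ± 0.083 after PBS (adjusted p = 0.992; interval −0.18 to 0.17). After PM it stood 0.27 ± 0.09 higher with metformin, every metformin library lying above every vehicle library, which missed the threshold (adjusted p = 0.0709). That comparison was called when no low-count filter was used (adjusted p = 0.00105), when only the 2 groups compared were fitted (0.0392) and without the first metformin PBS library (0.0428). The test of the difference itself, the PM effect in metformin mice minus that in vehicle mice, gave 0.28 ± 0.12 (adjusted p = 0.366; interval 0.02 to 0.53).

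Abcg1 (ENSMUSG00000024030, chr17:31057698-31115777, plus strand) hands sterol to formed lipoprotein particles. Its libraries were tightly grouped: 3190, 3192, 3146 and 3203 CPM with vehicle PBS, and 3227, 3031 and 3200 CPM with metformin PBS. PM was followed by 2757, 2742 and 2720 CPM with vehicle and 2594, 2516 and 2664 CPM with metformin. The PM groups lay wholly below the PBS groups, and metformin PM lay wholly below vehicle PM. Abcg1 fell with PM in vehicle mice (−0.22 ± 0.04, 1.16-fold, adjusted p = 0.00205) and in metformin mice (−0.28 ± 0.04, 1.22-fold, adjusted p = 0.000168). The change was small but several times the spread between replicates, whose pooled SD was 0.031 on the log2 scale against 0.138 for Abca1 and 0.237 for Apoe. Metformin after PM gave −0.08 ± 0.04 (adjusted p = 0.304), metformin after PBS −0.01 ± 0.04 (adjusted p = 0.906), and the 2 PM effects differed by −0.07 ± 0.06 (adjusted p = 0.73).

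Mylip (ENSMUSG00000038175, chr13:45389742-45412019, plus strand) encodes a ubiquitin ligase, also called IDOL, that limits lipoprotein uptake. It was at 99.2, 109, 99.2 and 98.1 CPM with vehicle PBS and at 92.2, 108 and 116 CPM with metformin PBS, which overlapped. With vehicle PM it was at 77.4, 74.5 and 74.9 CPM, and with metformin PM at 64.7, 54.6 and 61.3 CPM. Both PM groups lay below both PBS groups, and no metformin PM library reached a vehicle PM library.

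Mylip had the largest tested fall of the 6 genes. It fell with PM in vehicle mice (−0.42 ± 0.08, 1.34-fold, adjusted p = 0.00164) and in metformin mice (−0.81 ± 0.08, 1.75-fold, adjusted p = 1.76e-06). Mylip was lower in metformin PM than in vehicle PM mice (−0.33 ± 0.08, adjusted p = 0.0202), but the call was lost without metformin PM 3 (−0.27, adjusted p = 0.1), vehicle PM 1 (0.0618) or vehicle PM 2 (0.0523). After PBS the metformin effect was 0.06 ± 0.07 (adjusted p = 0.75). The difference of the 2 PM effects was −0.39 ± 0.11 (adjusted p = 0.1; interval −0.62 to −0.16). It was called without metformin PBS 1 (−0.49, adjusted p = 0.0133) and with no low-count filter (−0.40, adjusted p = 0.0106).

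No effect on the mRNAs of the receptors themselves passed the test. Nr1h2 (ENSMUSG00000060601, chr7:44549616-44553951, minus strand) encodes LXRβ, found in most tissues, and ranged from 77.9 to 88.6 CPM over the 13 libraries. Its 4 simple effects lay between −0.03 and 0.06 with SEs of 0.06 (adjusted p from 0.674 to 0.883), and every 95% interval lay within −0.15 to 0.18. Nr1h3 (ENSMUSG00000002108, chr2:91184061-91202834, minus strand) encodes LXRα, abundant in liver and lipid-laden macrophages, and ranged from 46.6 to 63.0 CPM. Its effects were 0.13 ± 0.08 for PM with vehicle, 0.04 ± 0.09 for PM with metformin, −0.08 ± 0.09 for metformin after PBS and −0.18 ± 0.09 for metformin after PM (adjusted p from 0.261 to 0.856). In the last comparison its 3 metformin libraries (50.1 to 53.9 CPM) lay just below the vehicle libraries (54.8 to 63.0 CPM). Per kilobase the 2 receptors were close, with an Nr1h2 to Nr1h3 ratio of 0.983 to 1.41 in the 13 libraries. Nr1h3 shares 34 exon bases with Gm13783, so a small part of its counts is uncertain.

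Lpcat3 (ENSMUSG00000004270, chr6:124663027-124704418, plus strand), the phospholipid-remodelling acyltransferase, was highest with vehicle PBS at 185 to 201 CPM. It was at 168 to 178 CPM with metformin PBS, 165 to 180.1 CPM with vehicle PM and 161 to 163 CPM with metformin PM, each below every vehicle PBS library. The difference from vehicle PBS was −0.16 ± 0.05 for PM (adjusted p = 0.0792) and −0.16 ± 0.05 for metformin (adjusted p = 0.087), so neither passed the test. The remaining effects were −0.08 ± 0.05 for PM in metformin mice (adjusted p = 0.352) and −0.09 ± 0.05 for metformin after PM (adjusted p = 0.399). Lpcat3 shares 334 exon bases with Emg1, so its counts are uncertain to that extent.

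Leaving out Apoe, 3 of the 6 genes fell with PM in vehicle mice (Abca1, Abcg1 and Mylip) and none rose, where 4.85% of all genes were called in either direction and 2.26% as lower. In metformin mice 2 of 6 fell (Abcg1 and Mylip), against 12.8% of all genes called and 5.60% called lower. Metformin after PBS called none of the 6 with edgeR, with 1 (Lpcat3) at an unadjusted p under 0.05, against 3.07% of all genes called. Metformin after PM called 1, Mylip, as lower, against 6.89% of all genes and 2.81% as lower. For the difference of the PM effects none of the 6 was called with edgeR, 2 (Abca1 and Mylip) having an unadjusted p under 0.05, against 1.44% of all genes called. The medians of the 6 effects were −0.188 for PM with vehicle, −0.088 for PM with metformin, −0.008 for metformin after PBS and −0.083 for metformin after PM, where the medians of all genes lay between −0.004 and 0.005.

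Groups that did not overlap were counted as well. In vehicle mice 4 of the 6 genes (the called 3 and Lpcat3) had every PM library below every PBS library, as did 7.60% of all genes. In metformin mice 3 of 6 did (Abcg1, Mylip and Lpcat3), against 13.9% of all genes. Metformin lay wholly below vehicle for 1 of 6 after PBS (Lpcat3; 7.54% of all genes) and for 4 of 6 after PM (Abcg1, Nr1h3, Mylip and Lpcat3; 13.1%), while Abca1 lay wholly above after PM (13.4%).

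**Figure D3:**
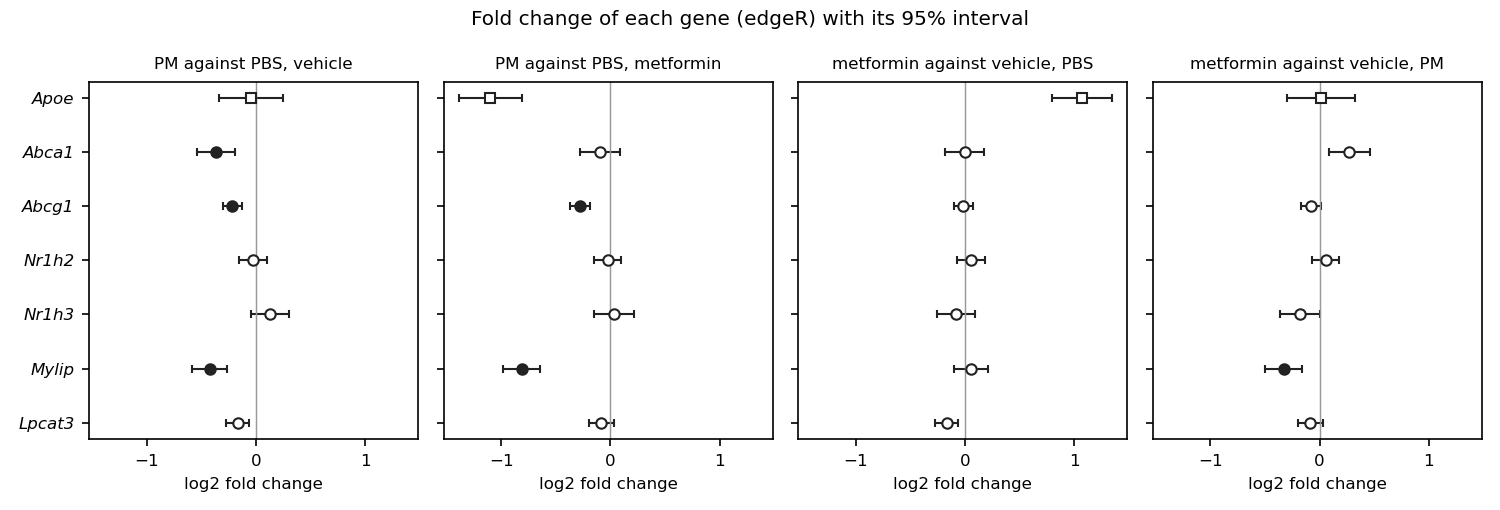
Log2 fold change (horizontal axis) with its 95% interval for Apoe and the 6 other genes in the 4 comparisons; filled circles passed an adjusted p of 0.05, open circles did not, and the open squares of Apoe carry no test. Abca1, Abcg1 and Mylip are filled for PM with vehicle, Abcg1 and Mylip for PM with metformin, and Mylip for metformin with PM.

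Markers of several cell types, alveolar macrophages included, moved with PM as well. Of 15 alveolar macrophage markers, 4 rose and 5 fell in vehicle mice, and 7 rose and 3 fell in metformin mice. With edgeR none of 3 tested neutrophil markers was called for PM, nor was the 1 tested dendritic cell marker. Of the 3 neutrophil markers, 2 had an unadjusted p under 0.05 in vehicle mice and 0 in metformin mice. The neutrophil medians were −0.361 in vehicle and −0.048 in metformin mice. Of all genes, 4.85% and 12.8% were called with PM in vehicle and metformin mice, and 6.89% for metformin after PM. Of the 12 tested monocyte and interstitial macrophage markers, 7 rose and none fell in vehicle mice, and again 7 rose and none fell in metformin mice. Mmp14, among the 12, was at most at 0.950 CPM in the PBS libraries, so it passed the filter through the PM libraries. Lyve1, also among them, was at 2.23 to 4.08 CPM with metformin PM and at most at 1.64 CPM elsewhere. It passed the filter through the metformin PM libraries. The part of Mmp14 and Lyve1 in the counts of this list is therefore a description and no test. Itgam, an integrin of myeloid cells, rose by 1.36 ± 0.17 with vehicle and by 1.67 ± 0.20 with metformin (adjusted p = 5.01e-05 and 1.17e-05), from at most 5.26 to at least 9.59 CPM. Of 9 listed lymphocyte markers only 2 immunoglobulin genes, Igkc and Jchain, passed the filter. In the PBS libraries they were at most at 1.10 and 0.478 CPM, so they passed it through the PM libraries. Their higher level with PM is therefore a description and no test. The rest of the lymphocyte list stayed below the filter. Of 10 tested lung epithelium markers, 5 rose and 1 fell with PM in metformin mice (median 1.01). None was called with edgeR in vehicle mice (3 at an unadjusted p under 0.05), with sums of 232 to 312 CPM over all libraries. The largest terms of these sums were Epcam and Cdh1. Lamp3 and Sftpd, among the 10, were at most at 1.435 and 1.567 CPM in the PBS libraries. They passed the filter through the PM libraries, so their part in these counts and in the median is a description and no test. The surfactant gene Sftpc had means of 23.3 CPM with vehicle PBS, 19.6 with metformin PBS, 29.1 with vehicle PM and 46.6 with metformin PM. Of 7 tested endothelial and stromal markers, 4 rose and none fell with PM in metformin mice (median 1.28), and none was called with edgeR in vehicle mice (0 at an unadjusted p under 0.05). Metformin with PM held the highest summed level of the endothelial and stromal list, at 28.3 to 48.6 CPM against 9.46 to 27.96 CPM in the other groups, and 3 of the 7 rose with metformin after PM, as did 1 of the 10 epithelial markers. Their part in the falls of Abca1, Abcg1 and Mylip was not tested.

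Partners and coregulators of LXR were listed as 14 genes, of which 13 were tested. None was called for PM in vehicle mice or for metformin after PBS with edgeR (1 and 3 at an unadjusted p under 0.05). Among the genes called with PM in metformin mice, Nrip1, a ligand-dependent repressor, fell (−0.60 ± 0.13, adjusted p = 0.00534). The co-activator gene Ncoa1 rose there (0.29 ± 0.07, adjusted p = 0.00913), but not without metformin PBS 3 (adjusted p = 0.0503) or metformin PM 4 (adjusted p = 0.0671). Among those called for metformin after PM, Ncoa1 rose (0.71 ± 0.07, adjusted p = 1.68e-05), as did Rxra, the retinoid X receptor partner (0.21 ± 0.06, adjusted p = 0.0318). The Rxra call was lost without metformin PM 1 (adjusted p = 0.207), metformin PM 4 (0.0521), vehicle PM 1 (0.153) or vehicle PM 3 (0.11). Ncoa1 was the only gene of the list called for the difference of the PM effects (0.50 ± 0.10, adjusted p = 0.011), where 1.44% of all genes were called.

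Other LXR targets were a list of 16, with 11 tested. None rose with PM, and 2 fell in vehicle mice: Pltp, the phospholipid transfer protein (−0.54 ± 0.08, adjusted p = 0.000163), and Arl4c, a small GTPase (−0.61 ± 0.14, adjusted p = 0.0128). The Arl4c call was lost without vehicle PM 2 (adjusted p = 0.0805) or vehicle PM 3 (0.0535). In metformin mice 5 fell with PM and none rose: Pltp (−0.44 ± 0.08), Arl4c (−0.66 ± 0.14), Apoc1, Srebf1 (−0.37 ± 0.06, adjusted p = 0.000266) and the desaturase gene Scd2 (−0.43 ± 0.11, adjusted p = 0.0153). The list medians were −0.137 and −0.274 for PM, against −0.001 and 0.005 for all genes. As lower, 2.26% and 5.60% of all genes were called with PM in vehicle and metformin mice.

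Srebf1, which shares the matched promoter letters shown above, was at 187 ± 11.4 CPM with vehicle PBS (n = 4), 167 ± 0.444 with metformin PBS, 170 ± 5.75 with vehicle PM and 130 ± 2.45 with metformin PM (SD, n = 3 each). Its metformin PM libraries lay below all others. Fasn, with the same letters as Abca1, was not called in any comparison and its PM effect in vehicle mice was 0.31 ± 0.10 (adjusted p = 0.0933), opposite in sign to that of Abca1. With metformin after PM, Srebf1 fell (−0.39 ± 0.06, adjusted p = 0.000298), together with Scd2 (−0.68 ± 0.11, adjusted p = 0.000761) and the lipoprotein lipase gene Lpl (−0.34 ± 0.06, adjusted p = 0.00244), and 0 of the 11 rose. After PBS Lpl fell (−0.31 ± 0.06, adjusted p = 0.00684) and Mertk, a receptor for the uptake of apoptotic cells, rose (0.28 ± 0.06, adjusted p = 0.0125), the latter not without metformin PBS 4 (0.102) or vehicle PBS 1 (0.0509). For the difference of the PM effects 0 of 11 were called with edgeR (2 at an unadjusted p under 0.05). Of all genes, 2.81% were called as lower with metformin after PM, 3.07% in either direction after PBS and 1.44% for the difference. Pltp shares 495 exon bases with Ctsa, Srebf1 109 with Rai1 and Scd2 61 with Mir5114, so their counts are uncertain to that extent.

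Of 16 listed genes of cholesterol efflux, storage and lysosomal release, 11 were tested. None rose and 1 fell with PM in vehicle mice, 2 rose and 1 fell with PM in metformin mice, none was called for metformin after PBS with edgeR (2 at an unadjusted p under 0.05), and 1 fell with metformin after PM. Nceh1, a cholesteryl ester hydrolase, fell with PM in vehicle (−0.24 ± 0.05, adjusted p = 0.00364) and metformin mice (−0.22 ± 0.05, adjusted p = 0.007). Tspo, a mitochondrial sterol-binding protein, rose with PM in metformin mice (0.51 ± 0.10, adjusted p = 0.00164), as did Soat1, the cholesterol esterifying enzyme (0.18 ± 0.06, adjusted p = 0.0384), although the Soat1 call was lost without metformin PBS 3 or 4, metformin PM 3 or 4, vehicle PBS 2 or vehicle PM 3 (adjusted p from 0.0514 to 0.214). The high-density lipoprotein receptor gene Scarb1 fell with metformin after PM (−0.23 ± 0.07, adjusted p = 0.0374), a call lost without metformin PM 1 or 4, vehicle PBS 2 or any vehicle PM library (adjusted p from 0.0506 to 0.147). Abca7, the closest relative of Abca1 on the list, was within 0.11 of 0 in all 4 comparisons. List medians lay between −0.043 and 0.023. The shares of all genes called were 4.85% and 12.8% for PM, 3.07% for metformin after PBS and 6.89% for metformin after PM.

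Oxysterol enzymes moved in both directions, with 5 of 8 tested. Ch25h makes 25-hydroxycholesterol, and it rose with PM in vehicle mice (1.69 ± 0.16, 3.23-fold, adjusted p = 1.08e-06) and in metformin mice (1.97 ± 0.19, 3.93-fold, adjusted p = 8.35e-07). It was at 16.4 ± 2.05 CPM with vehicle PBS (n = 4), 10.8 ± 1.93 with metformin PBS, 53.2 ± 8.12 with vehicle PM and 42.5 ± 11.2 with metformin PM (SD, n = 3 each). Hsd3b7, which acts on oxysterols on the way to bile acids, fell with PM by 0.25 ± 0.05 and 0.39 ± 0.05 on the log2 scale (adjusted p = 0.00317 and 4.76e-05). Ch25h shares 159 exon bases with Gm26902, so its counts are uncertain to that extent.

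The SREBP2 list covers the sterol-synthesis arm that is active when cholesterol is low in the cell. Of 11 tested genes there, 9 rose and none fell with PM in vehicle mice (median 0.676) and 6 rose and none fell in metformin mice (median 0.386), with Insig1, the sterol-sensing anchor of the pathway, at 0.72 ± 0.08 and 0.57 ± 0.08. Of all genes, 4.85% and 12.8% were called in these PM comparisons, 3.07% for metformin after PBS and 6.89% for metformin after PM. With metformin after PBS 2 of the 11 rose and none fell, Insig1 among them (0.38 ± 0.08, adjusted p = 0.0122; 0.0843 without metformin PBS 4). With metformin after PM 2 fell, Sqle (−0.64 ± 0.15, adjusted p = 0.00956) and Lss (−0.40 ± 0.12, adjusted p = 0.046). The Sqle call was lost without metformin PM 1 (0.0682) or vehicle PM 2 (0.0795), and the Lss call without metformin PBS 4, metformin PM 1 or 4, vehicle PBS 2, 3 or 4, or any vehicle PM library (adjusted p from 0.0501 to 0.227).

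The nuclear receptor PPARγ, which shapes alveolar macrophages and is known to act upstream of LXR in macrophages, had a list of 8 with 7 tested. With PM in vehicle mice 2 rose, the fatty acid binding protein genes Fabp5 (0.54 ± 0.09, adjusted p = 0.000515) and Fabp4 (0.53 ± 0.09, adjusted p = 0.000793), while the lipid droplet gene Cidec fell (−0.34 ± 0.06, adjusted p = 0.000785). In metformin mice 4 rose and none fell, among them Fabp4 (0.45 ± 0.10, adjusted p = 0.00407) and Pparg (0.38 ± 0.09, adjusted p = 0.00549). The other two were the scavenger receptor gene Cd36 (0.31 ± 0.08; adjusted p from 0.0599 to 0.121 without metformin PBS 3 or 4 or metformin PM 3 or 4) and Fabp5 (0.30 ± 0.09; 0.0691 to 0.227 without metformin PBS 1 or 3 or metformin PM 3 or 4). Cd36 was lower in metformin PBS than in vehicle PBS mice (−0.37 ± 0.08, adjusted p = 0.013), a call lost without metformin PBS 3 (0.0697) or 4 (0.0888). After PM Cidec was higher in metformin than in vehicle mice (0.33 ± 0.06, adjusted p = 0.0016). All genes were called at shares of 4.85% and 12.8% for PM, 3.07% for metformin after PBS and 6.89% for metformin after PM. Of the acyltransferase relatives of Lpcat3, 5 of 7 were tested. Agpat3 fell with PM in vehicle mice (−0.24 ± 0.06, adjusted p = 0.0216) and Lpcat2 rose with PM in metformin mice (0.71 ± 0.19, adjusted p = 0.0192), but Agpat3 lost its call without the libraries vehicle PM 1 or 3 and vehicle PBS 1 or 2, each left out alone (adjusted p from 0.0613 to 0.102), and Lpcat2 without metformin PBS 4 or metformin PM 3 or 4 (0.0779 to 0.116). Fabp4, Pparg and Cidec are also on the alveolar macrophage marker list.

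**Figure D4:**
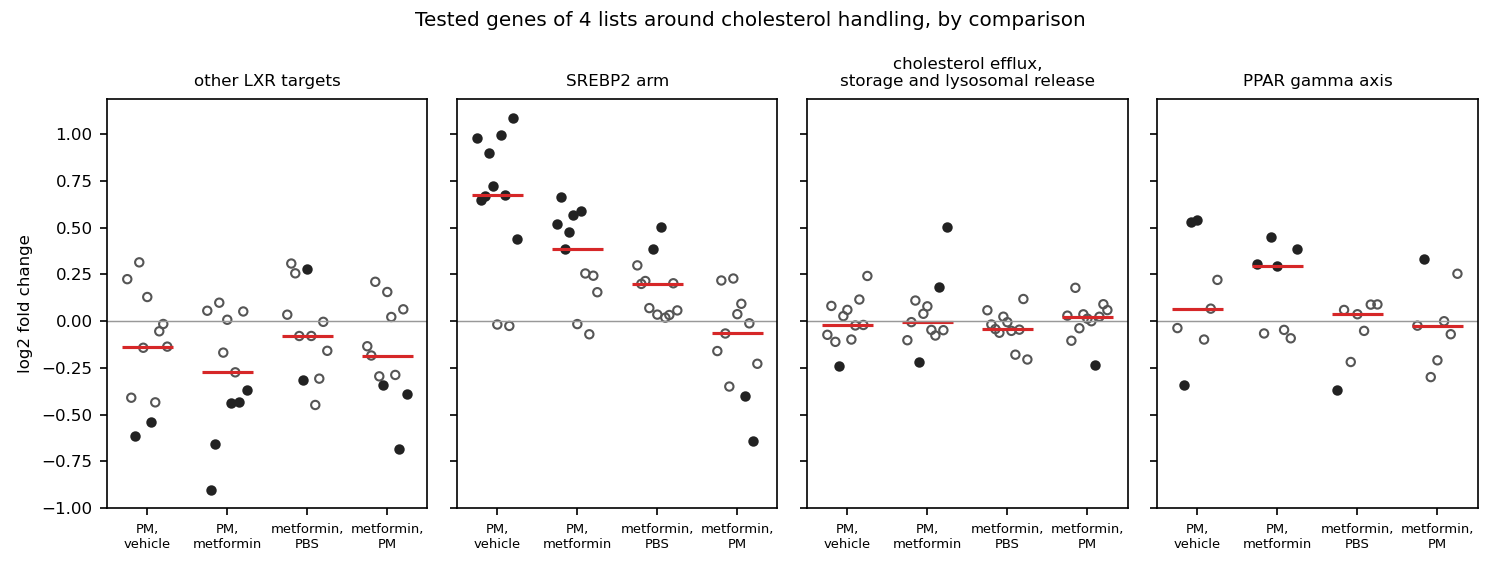
Log2 fold change (vertical axis) of every tested gene of 4 lists in the 4 comparisons; each point is a gene, filled where it passed an adjusted p of 0.05, and the red line is the list median. Other LXR targets lie mostly below 0 with PM (medians −0.137 and −0.274), the medians of the SREBP2 arm lie above 0 with PM (0.676 and 0.386) with 2 of its 11 genes below 0 in each, and the medians of the efflux and storage genes lie between −0.043 and 0.023.

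Likeness across libraries was measured as Pearson's r of log2 CPM over the 13 libraries, among the 9283 genes whose mean level reached 5 CPM. The libraries share 4 groups, so these values describe group patterns as much as libraries, and Apoe was chosen for its pattern. The gene most like Apoe was Kazald1, a secreted protease-inhibitor family gene (r = 0.912), at 98.5 ± 2.65 CPM with vehicle PBS, 127 ± 14.2 with metformin PBS, 92.3 ± 9.07 with vehicle PM and 95.6 ± 14.9 with metformin PM. Next were the epoxide hydrolase gene Ephx1 (0.868), Sh3glb2 (0.865), Epb41l1 (0.859) and the lysosomal fucosidase gene Fuca1 (0.835). Ppp1r12c (0.834), Tnfaip8l2 (0.83), the secreted factor gene Metrnl (0.827), the kinase gene Csnk1e (0.818) and Pros1, whose product protein S is an anticoagulant and a ligand of MERTK (0.816), completed the 10. All 10 had their highest group mean with metformin and PBS, as did Apoe, a likeness for which they were picked. Their steps were smaller than that of Apoe. Pros1, for example, was at 498 ± 16.8 CPM with metformin PBS against 439 ± 24.8, 420 ± 15.2 and 434 ± 18.8 CPM with vehicle PBS, vehicle PM and metformin PM. Ephx1 shares 72 exon bases with Gm36961 and Csnk1e 267 with Gm16059.

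None of the 6 other genes was among those most like Apoe. The r with Apoe was 0.504 for Mylip, 0.458 for Abcg1, 0.384 for Nr1h2, 0.355 for Abca1, −0.042 for Lpcat3 and −0.239 for Nr1h3. Mylip and Abcg1, by contrast, ran closely together (r = 0.935), and Lpcat3 had r = 0.688 with Abcg1 and 0.656 with Mylip. Abca1 and Abcg1, the paired transporters of the pathway, had r = 0.462. The genes most like Abcg1 were Tnfrsf21 (0.966), Rnase6 (0.958), the retinal reductase gene Dhrs3 (0.953), Ttc7 (0.951) and Nceh1 (0.939). Those most like Abca1 were Dtna (0.894), Setd5 (0.876), Gpd1, the glycerol-3-phosphate dehydrogenase gene (0.876), Sipa1l1 (0.873) and Lmtk2 (0.868).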

How the data were processed

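Raw read counts per gene and library were deposited, per the file headers, beside gene coordinates and a Length (unit "other") in the same table. That Length exceeded the gene's own span for 1982 genes, so levels per kilobase used exon bases of GENCODE M21, in which 41025 of 43430 genes lay in the same place. Per the submitters' processing notes, bcl2fastq 2.19, TopHat2, HTSeq, edgeR and mm10 were used; the annotation release and the strand setting of the counting are not given in the sources used here. Symbols were found for 42462 genes, and all 187 list names matched 1 ID each.

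Genes were filtered with filterByExpr and scaled by TMM, and edgeR 4.0.16 (R 4.3.3) was fitted to all 13 libraries with 1 coefficient per group (common biological coefficient of variation 0.0635). The SE is the fold change divided by the square root of F. Alternatives were DESeq2 1.42.0, limma 3.58.1 (voom), other scalings and filters (none, or 5 CPM in 3 libraries), only the groups compared, a replicate block, and fits without each library in turn. The fit was tested on simulated data. Members and lists were chosen with earlier results of these data known. Genes named are the 7, up to 4 called genes per list and comparison with the lowest adjusted p, and the 10, 5 and 5 genes most like Apoe, Abca1 and Abcg1 (log2 CPM, prior count 2; predicted genes left out); not all are printed, and results of a few genes are left out. Fasn, Prrg4, Abca7 and the neighbours of Apoe were added for the sequence and position results. Libraries within a group correlated at r = 0.987 to 0.992 and none were duplicates, differing by more than counting noise (2.14 or more per gene, chi-square).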

Additional observations from a re-analysis of the deposited data

Results flagged for a closer look

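In vehicle PBS, the second library stood apart for Mylip: 109 CPM against 98.1 to 99.2 CPM in the other 3, a gap of 0.889 of the whole range of that group. Chance flags about 1 in 20 groups. Without that library Mylip kept its calls in both PM comparisons.

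Ncoa1 responded to PM differently with and without metformin. It differed by −0.21 ± 0.07 in vehicle mice and by 0.29 ± 0.07 in metformin mice, and the test of the difference gave 0.496 ± 0.098 (edgeR, adjusted p = 0.011).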

How the results depend on the processing

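Over the alternatives run, the effects of the named genes stayed on their side of the threshold in 1720 cases, lost a call in 74 and gained one in 5, and no called effect changed sign. The number of genes called with no low-count filter was 507 for the difference of the PM effects (171 with the filter) and 813 for metformin after PBS (365), the latter falling to 200 when only the groups compared were fitted. For metformin after PM, 2 of the 6 genes were called with no low-count filter and 2 with only the groups compared (Abca1 beside Mylip), and for the difference 1 (Mylip) with no filter. Leaving out each library, genes called ranged from 359 to 645 (PM with vehicle), 884 to 1666 (PM with metformin), 121 to 503 (metformin after PBS), 419 to 954 (metformin after PM) and 113 to 262 (difference), and called members from 0 to 2 for metformin after PM and from 0 to 1 for the difference. The cause was not tested.

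Same-number pairs of libraries had correlations of −0.102 to 0.116, with 1 of 16 over 0.1, against −0.143 to 0.141 for the other pairs. Of 13 libraries, 6 correlated best with their own number, and how many chance would give was not worked out. These values do not settle whether the libraries are paired by replicate number. With the number as a replicate block, metformin after PM called 535 genes (820 without) and 0 of the 6 genes (Mylip −0.33, adjusted p = 0.0543), and the Apoe difference was −1.02. Counts per library were 243 to 756 for Apoe, Nr1h2, Nr1h3 and Mylip, the lowest of the 7 genes. The within-group SD of log2 CPM was lowest for Abcg1 (0.031), which had the most counts (16732 to 20899). It was highest for Apoe (0.237), at 243 to 732 counts. Abca1 departed from that order, with an SD of 0.138 at 1747 to 3345 counts, against 0.058 for Nr1h2 at 492 to 706 counts.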
